A study of Mus musculus with 14 samples.

Results

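The 42 genes described here drive the cell division cycle or copy the genome, and they were measured in granulosa cells (GCs), the somatic cells that surround and feed the oocyte, from antral follicles of obese and lean mice. They were chosen by name, from a list of cyclins, cyclin-dependent kinases (CDKs), CDK inhibitors, replication genes and mitotic genes. The list was matched to the gene symbols of a counts table of 55414 genes. The matching used no expression value, but the list was made with earlier results of these data known. RNA-seq was run on 14 libraries of about 50 GCs each. The db/db group (4 libraries) came from B6.BKS(D)-Leprdb/J females, which lack the long isoform of the leptin receptor, and the ob/ob group (3 libraries) from B6.Cg-Lepob/J females, which lack leptin itself. Their lean controls, CT db (4 libraries) and CT ob (3 libraries), are labelled as wild type, while the column names of the same groups read het and obHet, and which of the names is right was not settled. The mice ate chow and were 12 weeks old, the mutation is present in every cell of the body, and GCs were freed by puncturing the ovary. The design asks whether loss of leptin or of its receptor changed GC proliferation transcripts relative to lean controls of the same colony, and whether both mutants did so alike.

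GCs of growing follicles are among the most rapidly dividing cells of the adult ovary. Follicle-stimulating hormone and oocyte factors drive them through G1 by way of cyclin D2, which with CDK4 or CDK6 inactivates the retinoblastoma protein and so frees E2F transcription factors. E2F turns on the genes that license and copy DNA, while genes of G2 and mitosis are held silent until later by the DREAM complex, which binds the CHR element often beside CCAAT boxes, and division ends as GCs luteinise and the CDK inhibitors p27 and p21 accumulate.

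The promoters of the members carry these elements, and 6 of them are shown because between them they hold every element searched, a pair each from replication, mitotic entry and the G2 and kinetochore groups. Each window runs from 250 bases before to 50 bases after the transcription start, 5′ to 3′, from RefSeq on GRCm38.p6, and 35 of the 42 genes had one. The letters searched, on both strands, were TTTGAA for the CHR element, TTTCCCGC, TTTGGCGC and TTTCGCGC for E2F sites, and CCAAT for the CCAAT box. In Mcm5 and Mcm6, which encode subunits of the replicative helicase, capitals mark E2F matches, and in each a run of 12 capital bases is a match on one strand overlapping a match to another E2F word on the other strand.
Mcm5 (chr8:75109259-75109558, plus strand): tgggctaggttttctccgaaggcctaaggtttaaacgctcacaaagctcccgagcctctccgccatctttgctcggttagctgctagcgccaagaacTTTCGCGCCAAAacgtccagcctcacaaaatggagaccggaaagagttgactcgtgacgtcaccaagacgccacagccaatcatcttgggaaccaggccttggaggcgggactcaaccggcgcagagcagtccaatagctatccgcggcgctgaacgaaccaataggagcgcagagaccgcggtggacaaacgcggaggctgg
Mcm6 (chr1:128359656-128359955, minus strand): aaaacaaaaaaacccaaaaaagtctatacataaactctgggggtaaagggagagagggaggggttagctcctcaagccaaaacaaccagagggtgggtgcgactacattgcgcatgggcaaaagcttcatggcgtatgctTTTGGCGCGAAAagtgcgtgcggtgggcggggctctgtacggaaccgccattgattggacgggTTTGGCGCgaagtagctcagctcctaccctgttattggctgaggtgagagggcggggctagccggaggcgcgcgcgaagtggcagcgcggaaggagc
In Cdk1, the kinase that starts mitosis, capitals mark CHR and E2F matches, and in Ccnb2, its cyclin B2 partner, and Top2a, a topoisomerase that untangles chromosomes, they mark CHR matches, of which one in Top2a lies on the opposite strand and reads TTCAAA.
Cdk1 (chr10:69352863-69353162, minus strand): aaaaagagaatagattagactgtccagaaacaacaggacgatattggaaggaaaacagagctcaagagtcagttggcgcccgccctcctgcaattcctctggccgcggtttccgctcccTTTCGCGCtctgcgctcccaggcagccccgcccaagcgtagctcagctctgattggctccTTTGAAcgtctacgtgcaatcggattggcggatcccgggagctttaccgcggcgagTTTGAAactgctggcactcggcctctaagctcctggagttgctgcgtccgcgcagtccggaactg
Ccnb2 (chr9:70421505-70421804, minus strand): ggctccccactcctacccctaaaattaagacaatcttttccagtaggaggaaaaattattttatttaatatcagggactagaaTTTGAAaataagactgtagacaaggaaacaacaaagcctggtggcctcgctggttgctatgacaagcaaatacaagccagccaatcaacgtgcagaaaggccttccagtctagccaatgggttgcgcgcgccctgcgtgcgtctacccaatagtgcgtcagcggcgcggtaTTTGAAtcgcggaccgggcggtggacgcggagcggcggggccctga
Top2a (chr11:99024140-99024439, minus strand): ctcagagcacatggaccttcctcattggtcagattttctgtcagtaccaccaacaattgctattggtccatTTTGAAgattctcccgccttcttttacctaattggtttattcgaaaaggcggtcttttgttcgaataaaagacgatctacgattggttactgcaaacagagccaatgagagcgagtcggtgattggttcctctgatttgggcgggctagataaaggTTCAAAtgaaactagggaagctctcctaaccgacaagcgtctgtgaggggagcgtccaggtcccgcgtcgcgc
In Cenpq, a kinetochore subunit, capitals mark CCAAT boxes, 2 of which abut.
Cenpq (chr17:40934525-40934824, minus strand): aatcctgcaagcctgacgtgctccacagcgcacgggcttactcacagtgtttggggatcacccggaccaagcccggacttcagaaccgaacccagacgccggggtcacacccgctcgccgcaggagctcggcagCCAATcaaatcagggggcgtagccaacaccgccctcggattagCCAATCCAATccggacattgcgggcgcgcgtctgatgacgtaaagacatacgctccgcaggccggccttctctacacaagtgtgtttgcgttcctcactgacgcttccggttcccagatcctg
Over the 35 promoters an E2F match was present in 8, and 6 of those belonged to the 9 licensing and replication genes with a window. The same match was present in 1.91% of 27025 mouse promoters of the same length. A CHR match was present in 11 of 35 (4 of 5 mitotic entry genes and both S/G2 genes with a window), against 18.1% of all promoters, and a CCAAT box in 24 of 35, against 37.9%. Cenpq had neither a CHR nor an E2F match in this window. A match is a run of letters and not a tested binding site.

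Depth was lowest for db/db, where libraries held 2204686 to 3059777 counted reads, and highest for ob/ob, with 5306632 to 8367593. The controls lay between (CT db 3624237 to 4840714, CT ob 3664219 to 4847166). Levels are given as CPM, read counts relative to a library's total after TMM scaling, which corrects for library composition, and 3 counts, taken as the limit of detection, came to 0.382 to 1.26 CPM. Lepr had 0 to 17 counts and Lep 0 to 3 in any library, so neither gene could check the genotype labels. The summed level of 10 GC markers was 5473 to 14510 CPM per library. Markers of other cells summed to 1.57 to 6.1 CPM for 5 macrophage and leukocyte genes. Of these, Cd68 had a median of 2.19 CPM, Csf1r 0.418, Ptprc 0.254, and Adgre1 and Itgam 0. Cd68 had counts in all 14 libraries. The sums were 3.14 to 32 CPM for 5 endothelial genes and 0 to 23.3 CPM for 4 surface epithelium genes. The 5 theca genes gave 79.7 to 741 CPM (highest in the db/db library HOM_24), the 5 luteal genes 4.74 to 347 CPM, and the 10 oocyte genes 2.6 CPM in the CT db library het_37 to 1070 CPM in the CT ob library obHet_60. In a bulk sample, fewer cells of a type and less RNA per cell cannot be told apart.

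GCs of all 4 groups expressed nearly the whole cell cycle programme. The 42 genes together summed to 8748 to 11590 CPM per library, or 0.875% to 1.16% of a library's total after TMM scaling. Of them, 40 passed the filter on low counts. The exceptions were Ccnd1 (0 to 1.67 CPM) and Cdkn1c (0 to 1.93 CPM), which encode cyclin D1 and the inhibitor p57. To compare genes, CPM was divided by the length of a gene's exons in kb. By that measure the highest medians over the 14 libraries were those of Cdk4 (161 CPM per kb), Ccnd2 (140.5), Cdc20 (115), which activates the ligase that ends metaphase, Top2a (114) and Ccnb2 (113), whose ranges overlap, so that their order is not fixed. Next came Pcna (87.6), the clamp of the DNA polymerases, Mcm6 (81.2), Ccna2 (81.1), which encodes the S and G2 cyclin A2, and Rrm2 (76.9), a subunit of ribonucleotide reductase.

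**Figure D1:**
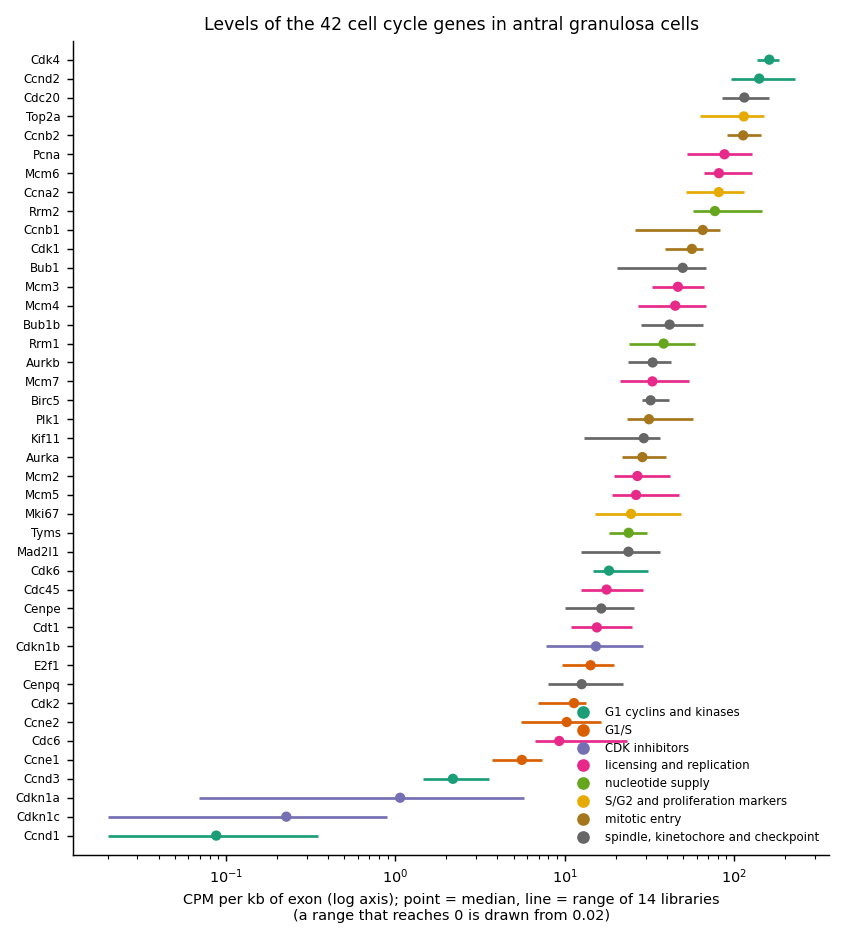
Level of each of the 42 genes in CPM per kb of exon on a log axis, as the median (point) and range (line) over the 14 libraries, coloured by phase. Cdk4 at 161 and Ccnd2 at 140.5 CPM per kb lead, and Ccnd1 and Cdkn1c lie lowest with ranges that reach 0.

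The D cyclins divided sharply. Ccnd2 made up 97.3% to 99.1% of the summed per-kb level of the D cyclins in every library, Ccnd3 0.81% to 2.61%, and Ccnd1 the small remainder. Cdk4 exceeded Cdk6 on the per-kb scale by 5.8 to 10.6 times in each library. Much of that gap came from the exon lengths used, 3440 bases for Cdk4 and 14421 for Cdk6. In CPM the medians were 555 and 263, and the median annotated transcripts are 1295 and 1066 bases long. Among the inhibitors, p27 (Cdkn1b) had a median of 15.3 CPM per kb, p21 (Cdkn1a) 1.07 and p57 (Cdkn1c) 0.227. In G1/S, the medians were 14.2 CPM per kb for E2f1, 11.3 for Cdk2, 10.3 for Ccne2 and 5.58 for Ccne1, the last a pair of E cyclins that bind Cdk2.

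The licensing and replication genes ranged from Cdc6 (9.27 CPM per kb) and Cdt1 (15.5), which load the helicase onto origins, through Cdc45 (17.6), which activates it, to the helicase subunits Mcm5 (26.4), Mcm2 (26.8), Mcm7 (32.9), Mcm4 (44.9) and Mcm3 (46.5), with Mcm6 and Pcna higher still, as given above. Nucleotide supply was represented also by Rrm1 (38.3) and thymidylate synthase, Tyms (23.8). In G2 and mitosis, Ccnb1 had 65.2, Cdk1 56.3, the spindle checkpoint kinases Bub1 49.7 and Bub1b 41.6, the chromosomal passenger genes Aurkb 33 and Birc5 32.1, Plk1 31.4, the spindle motor Kif11 29.3, Aurka 28.7, the proliferation marker Mki67 24.6, the checkpoint protein gene Mad2l1 23.8, the kinetochore motor Cenpe 16.4 and Cenpq 12.6 CPM per kb. By the annotation, 12 of the 42 genes share over 10% of their exon bases with exons of another gene, nearly all on the opposite strand (Ccnd1, Ccnd2, Cdk4, Ccne2, Cdkn1a, Cdkn1c, Cdc45, Mcm7, Pcna, Rrm2, Ccna2 and Aurka), and since no strand setting is stated for the counting their levels could hold reads of those partners.

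A pair of control libraries stood apart from the rest of their groups in these genes. In CT db, het_37 was highest of the 4 libraries for 10 of 10 licensing and replication genes, with a summed level of 2844 CPM against 1630, 1841 and 1856 CPM in the others. The same library was lowest for 10 of 17 genes of S/G2, mitotic entry and the spindle, so that its replication sum was 1.17 times its summed mitotic entry and spindle level, against 0.561 to 0.647 in the other CT db libraries. In CT ob, obHet_68 was lowest of 3 for 29 of the 40 tested genes and for 14 of the 17 S/G2, mitotic and spindle genes. Its mitotic entry genes summed to 758 CPM, against 1159 and 1299 CPM, and its spindle genes to 1116 CPM, against 1661 and 1797 CPM. obHet_68 also had the highest level of the 18S ribosomal RNA gene Rn18s-rs5, 280300 CPM in a range from 10080, and the highest Cdkn1a, 34.7 CPM, against 0.991 and 9.91 CPM in the other CT ob libraries.

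**Figure D2:**
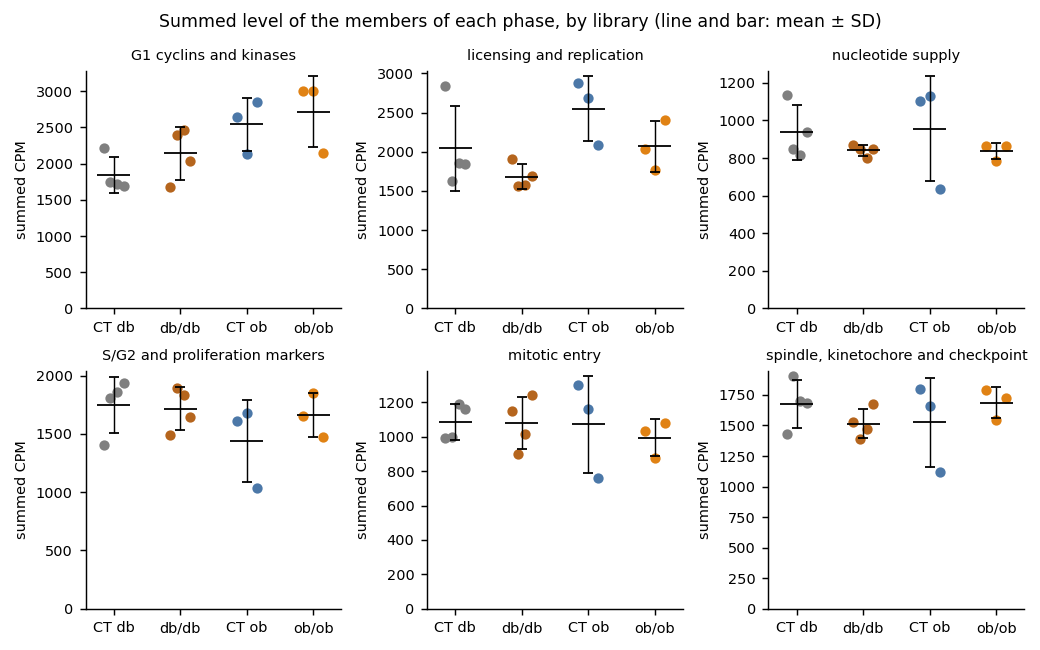
Summed CPM of the genes of each of 6 phases in every library, by group (points), with the group mean and SD. In licensing and replication, 1 CT db library lies at 2844 CPM above the other 3, and in CT ob 1 library lies at 758 CPM for mitotic entry and 1116 CPM for the spindle group, below the other 2.

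In the db model no cell cycle gene was called by edgeR. Licensing and replication transcripts and Cenpq had the lower estimates in db/db and Mki67 the highest, while the 5 mitotic entry estimates lay between -0.03 and 0.08 on the log2 scale. Of the 40 genes tested, 0 had an adjusted p of 0.05 or less in the edgeR quasi-likelihood test, where 0.00884% of all 11317 genes did, while DESeq2 called 1 (Cenpq). DESeq2 called 0.389% of all genes. At an unadjusted p under 0.05 there was 1 higher gene (3.38% of all genes) and 3 lower genes (4.21%), together against 7.59%. The estimates were above 0 for 14 of 40 (51.6% of all genes) and below 0 for 26, with a median log2 fold change of -0.08 against 0.01 over all genes. Without het_37, 20 of 40 were above 0. The groups did not overlap for 0 higher genes (1.3% of all genes) and 2 lower genes (3.13%), together against 4.43%.

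All 10 licensing and replication genes had negative estimates in db/db, with a median log2 fold change of -0.34. Their summed level was 1568, 1572, 1687 and 1906 CPM in the 4 db/db libraries and 1630, 1841, 1856 and 2844 CPM in CT db. The groups overlapped, and the highest control was het_37. Without that library 5 of the 10 estimates were negative and the median was 0.003, whereas leaving out any other library, or any other scaling tried, kept all 10 below 0. The 10 genes share the same libraries and are not independent measurements. Every db/db library was also shallower than every CT db library, and luteal markers summed to 7.99 to 52.1 CPM in db/db against 44.2 to 135 CPM in CT db, and the part of either in the estimates was not tested.

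Cdt1, the licensing factor that brings the MCM helicase to origins, was 35.1, 37.9, 39.1 and 39.2 CPM in db/db and 42.6, 48.1, 51.9 and 80.7 CPM in CT db. Every db/db library lay below every control, by a narrow margin at the nearest pair. The log2 fold change was -0.51 ± 0.20 (SE; adjusted p = 0.597). Cdc45 gave 53.9, 56.8, 61.5 and 75 CPM in db/db and 70.5, 74.3, 75.2 and 125 CPM in CT db, so that the groups overlapped through 1 db/db library. Its log2 fold change was -0.43 ± 0.20 (adjusted p = 0.651). In both genes het_37 was the highest control, and without it the estimates were -0.29 ± 0.15 for Cdt1 and -0.21 ± 0.15 for Cdc45.

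Mki67, which encodes the Ki-67 protein of cycling cells, had the highest estimate in the db model. It measured 226, 300.4, 427 and 496 CPM in db/db and 154, 233, 250.1 and 279 CPM in CT db. Of the 4 db/db libraries, 3 lay above all controls and HOM_24 lay among them. The log2 fold change was 0.70 ± 0.25 (adjusted p = 0.567), and 0.55 ± 0.25 without het_37. Ccnd2 was 910, 1272, 1399 and 1568 CPM in db/db and 904, 934, 973 and 1356 CPM in CT db, overlapping through HOM_24 and het_37, with a log2 fold change of 0.35 ± 0.19 (adjusted p = 0.704).

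Other proliferation markers did not follow Mki67. Top2a gave 836, 1013, 1065 and 1121 CPM in db/db and 855, 1202, 1238 and 1361 CPM in CT db, and Ccna2 275 to 428 CPM against 324 to 393 CPM. Both genes overlapped between the groups. Mitotic entry transcripts summed to 902 to 1245 CPM in db/db and 994 to 1192 CPM in CT db, also overlapping, and the 5 estimates of that group lay 3 above and 2 below 0 (1 and 4 without het_37). Spindle, kinetochore and checkpoint genes lay 4 above and 5 below, and G1 cyclins and kinases 3 above and 1 below. G1/S genes lay 2 and 2, and the 3 nucleotide supply genes all below 0. Of the CDK inhibitors tested, Cdkn1b lay above 0 (0.39 ± 0.22) and Cdkn1a below (-0.12 ± 0.72), and both overlapped between the groups.

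Cenpq departed from the rest. The gene lies on chromosome 17 at 41231692 to 41245940 on the minus strand (GRCm39), and its protein is a subunit of the network of kinetochore proteins that stays on centromeres through the cycle. It measured 45.9, 53.9, 60.1 and 71.5 CPM in db/db and 83.6, 89, 105 and 116 CPM in CT db. No db/db library reached the lowest control. The log2 fold change was -0.73 ± 0.17, with an adjusted p = 0.363 by edgeR and an adjusted p = 0.0379 by DESeq2, so the call depends on the tool.

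In the ob model again no cell cycle gene was called, and again the licensing and replication genes had negative estimates. The lowest estimates were those of Cdkn1a (-1.65 ± 1.09, adjusted p = 0.709 by edgeR) and Ccnd3 (-0.60 ± 0.26, adjusted p = 0.611 by edgeR). The Cdkn1a groups overlapped, at 1.12 to 8.42 CPM in ob/ob and 0.991, 9.91 and 34.7 CPM in CT ob, the last from obHet_68. Of 40 genes, 0 had an adjusted p of 0.05 or less, as did 0% of all 12425 genes tested by edgeR, and DESeq2 called 0 of the 40 and 0.692% of all genes. At an unadjusted p under 0.05 there were 2 higher genes (4.76% of all genes) and 2 lower genes (3.4%), together against 8.16%. Estimates were above 0 for 12 of 40 (46% of all genes) and below 0 for 28, with a median of -0.20 against -0.04 over all genes. The groups did not overlap for 2 genes higher in ob/ob, Cenpe and Cenpq (9.06% of all genes), and for 4 lower, Ccnd3, Cdt1, Tyms and Birc5 (6%), together against 15.1%.

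The 10 licensing and replication estimates were all negative in ob/ob, with a median log2 fold change of -0.32. The summed level was 1766, 2032 and 2404 CPM in ob/ob and 2083, 2682 and 2878 CPM in CT ob. The groups overlapped, the lowest control being obHet_68. Without that library all 10 stayed negative and the median was -0.40, and without obHOM_41 or obHet_60, 9 of 10 did. Luteal markers summed to 4.74 to 17.6 CPM in ob/ob and 14.7 to 347 CPM in CT ob, and granulosa markers to 7877 to 14510 against 5473 to 9849 CPM, and their part in the estimates was not tested.

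**Figure D3:**
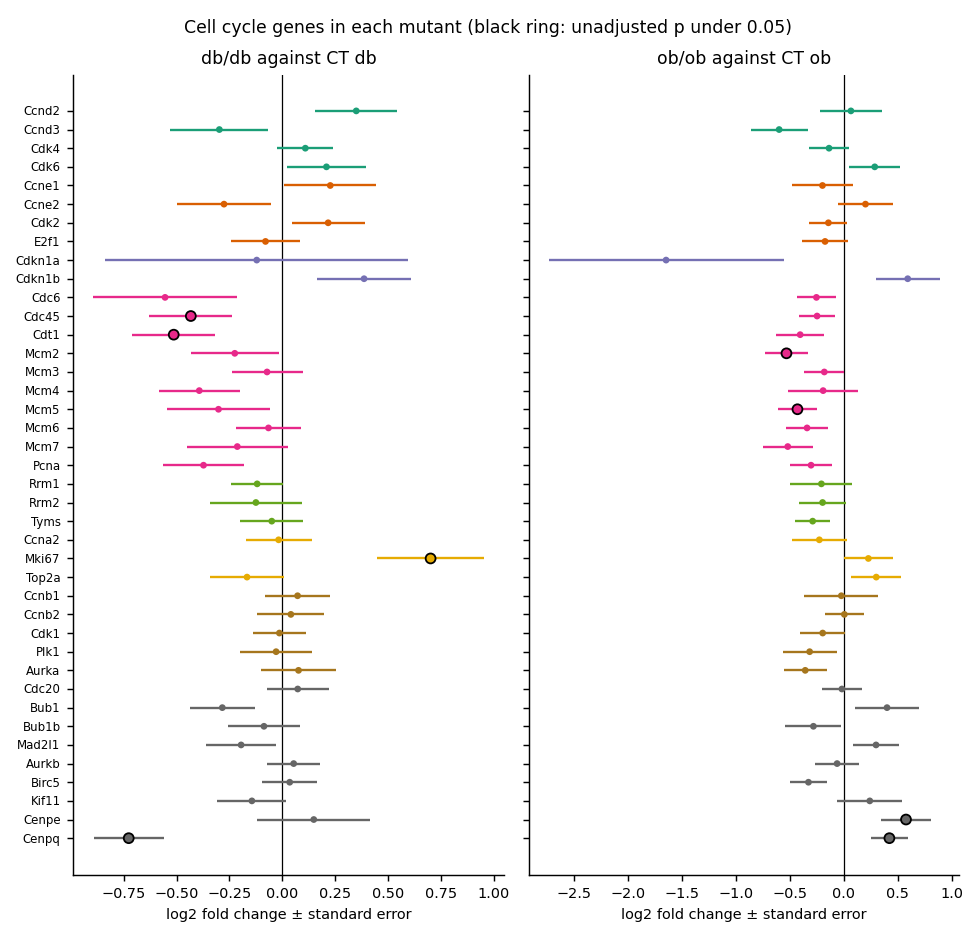
Log2 fold change ± standard error of the 40 tested genes in db/db against CT db (left) and ob/ob against CT ob (right), coloured by phase as in the plot of levels, with a black ring where the unadjusted p is under 0.05. The 10 licensing and replication estimates lie left of 0 in both panels, and Cenpq lies at -0.73 on the left and 0.42 on the right.

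Mcm2 measured 168, 214 and 248 CPM in ob/ob and 241, 318 and 327 CPM in CT ob, and Mcm5 180, 226 and 244.4 CPM against 243.7, 301 and 306 CPM. In both genes the highest ob/ob library just passed the lowest control, obHet_68. The log2 fold changes were -0.53 ± 0.20 for Mcm2 (adjusted p = 0.581) and -0.43 ± 0.18 for Mcm5 (adjusted p = 0.611), and without obHet_68 they were -0.61 ± 0.19 and -0.48 ± 0.17. Cdt1 was 41.7, 59.7 and 72.1 CPM in ob/ob and 73.2, 73.4 and 75.1 CPM in CT ob, without overlap, while the spread within ob/ob was far wider than the gap.

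The 2 higher genes at an unadjusted p under 0.05 were the kinetochore genes Cenpe and Cenpq. Cenpe, the motor that carries chromosomes to the spindle equator, was 136, 161 and 232 CPM in ob/ob and 110, 114 and 121 CPM in CT ob (log2 fold change 0.58 ± 0.23, adjusted p = 0.606). Cenpq was 65.5, 67.1 and 69.1 CPM in ob/ob and 41.9, 49 and 55.1 CPM in CT ob (0.42 ± 0.17, adjusted p = 0.606). All ob/ob libraries exceeded all controls for both of these genes. The highest estimate of the ob model was that of Cdkn1b, at 0.59 ± 0.30 (adjusted p = 0.649 by edgeR), with overlapping groups.

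Cyclin D2 and the summed mitotic entry genes overlapped between the groups in the ob model. Ccnd2 was 1288, 1912 and 2151 CPM in ob/ob and 1242, 1738 and 1941 CPM in CT ob. The mitotic entry sum was 875, 1031 and 1080 CPM against 758, 1159 and 1299 CPM. The lowest control sum came from obHet_68, and without that library both remaining controls lay above all ob/ob libraries, with 4 of the 5 estimates negative and a median of -0.36. Mki67 gave 245, 274 and 386 CPM in ob/ob against 242, 251 and 254 CPM, overlapping.

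Between the lean controls of the colonies, p21, cyclin D2, E2F1 and most replication transcripts had higher estimates in CT ob. Lower estimates were those of p27 and several kinetochore and checkpoint transcripts, and Cenpq alone was called. In CT ob against CT db, 0 of the 40 genes were called higher (2.24% of all 12586 genes) and 1, Cenpq, was called lower in CT ob (4.39%), together against 6.63%. At an unadjusted p under 0.05 there were 13 higher and 5 lower genes (13.5% of all genes in each direction), together against 26.9%. The groups did not overlap for 2 higher genes, Cdc20 and Birc5 (8.8% of all genes), and 2 lower genes, Cdkn1b and Cenpq (11.4%), together against 20.2%. The estimates were above 0 for 27 of 40 (54.1% of all genes), and the median log2 fold change was 0.24 against 0.06 over all genes. The oocyte markers summed to 54.4, 275 and 1070 CPM in CT ob and 2.6, 14.3, 134 and 241 CPM in CT db, and their part in these estimates was not tested. Colony, strain background and any unrecorded batch cannot be told apart here. DESeq2, which called 12.4% of all genes, called 4 (Ccnd2, Cdkn1b, Mad2l1, Cenpq), a fit of these 7 libraries alone called 0 of the 40 and 3 of all genes, and without het_37 edgeR called 8 (Ccnd2, Cdkn1b, Cdc6, Cdt1, Mcm2, Mcm5, Mcm6, Cenpq), against 9.46% of all genes.

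In G1, Cdkn1b and Ccnd2 had opposite estimates. Cdkn1b, encoding p27, was 35, 41 and 51.1 CPM in CT ob and 63.3, 68.9, 99.1 and 108 CPM in CT db, with no overlap (log2 fold change -0.97 ± 0.28, adjusted p = 0.0534). Ccnd2, encoding cyclin D2, was 1242, 1738 and 1941 CPM in CT ob and 904, 934, 973 and 1356 CPM in CT db. The groups overlapped only through het_37 (log2 fold change 0.70 ± 0.24, adjusted p = 0.0848). Without het_37 the Ccnd2 estimate was 0.85 ± 0.25 (adjusted p = 0.0491) and that of Cdkn1b -1.09 ± 0.29 (adjusted p = 0.0355), and without obHet_68 they were 0.485 ± 0.25 and -0.92 ± 0.33. Ccnd3 gave 0.51 ± 0.24 (adjusted p = 0.185) and E2f1, the E2F that the pathway releases, 0.48 ± 0.18 (adjusted p = 0.107). Cdkn1a, encoding p21, had the highest estimate between the controls, 1.45 ± 0.97 (adjusted p = 0.344 by edgeR). Its groups overlapped, at 0.991 to 34.7 CPM in CT ob and 1.1 to 13 CPM in CT db, and the 34.7 CPM came from obHet_68.

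Licensing and replication genes had higher estimates in CT ob for 9 of 10, with a median of 0.41 and 5 at an unadjusted p under 0.05. These were Mcm5 (0.58 ± 0.24, adjusted p = 0.14), Mcm7 (0.55 ± 0.25, adjusted p = 0.176), Cdt1 (0.45 ± 0.21, adjusted p = 0.185), Mcm6 (0.44 ± 0.16, adjusted p = 0.101) and Mcm3 (0.38 ± 0.17, adjusted p = 0.176). Mcm5 measured 244, 301 and 306 CPM in CT ob and 133, 141, 180 and 322 CPM in CT db, het_37 again being the control that overlapped. Without het_37 the Mcm5 estimate was 0.925 ± 0.17 (adjusted p = 0.0076), the median of the 10 was 0.62 and 10 of 10 were above 0. In nucleotide supply, Tyms gave 0.33 ± 0.14 (adjusted p = 0.163).

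Mitotic genes lay on both sides of 0. Plk1 (0.51 ± 0.21, adjusted p = 0.143), Cdc20 (0.43 ± 0.16, adjusted p = 0.0972), Aurka (0.42 ± 0.19, adjusted p = 0.172) and Birc5 (0.35 ± 0.14, adjusted p = 0.117) had higher estimates in CT ob. Bub1 (-0.58 ± 0.23, adjusted p = 0.133), Mad2l1 (-0.55 ± 0.19, adjusted p = 0.0872) and Top2a (-0.47 ± 0.20, adjusted p = 0.151) had lower ones. obHet_68 was the lowest CT ob library for each of those 3 genes, at 92.3, 112 and 569 CPM. Without that library the estimates were -0.31 ± 0.18 for Bub1, -0.39 ± 0.18 for Mad2l1 and -0.32 ± 0.20 for Top2a. With the GC trend described below also taken out they were 0.08, -0.03 and -0.05, near 0 for all 3 genes.

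Cenpq fell in CT ob relative to CT db, with a log2 fold change of -0.99 ± 0.17 (adjusted p = 0.00919). The 3 CT ob libraries (41.9 to 55.1 CPM) lay below all CT db libraries (83.6 to 116 CPM). In the fit of the 7 control libraries alone the adjusted p was 0.0543. The values of Cenpq over the 4 groups thus ran highest in CT db, with both mutants and CT ob below, and the db/db (45.9 to 71.5 CPM) and ob/ob (65.5 to 69.1 CPM) ranges overlapped.

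**Figure D4:**
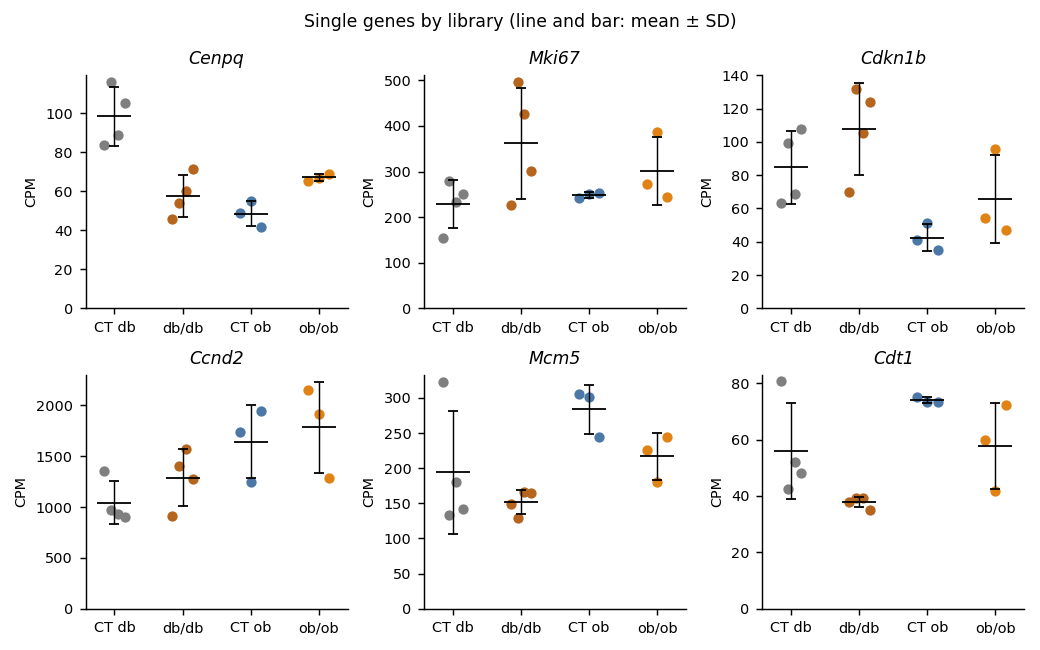
CPM of Cenpq, Mki67, Cdkn1b, Ccnd2, Mcm5 and Cdt1 in every library by group (points), with the group mean and SD on axes that start at 0. CT db stands above the other 3 groups in Cenpq, at 83.6 to 116 CPM, and 1 CT db library stands above the other 3 in Ccnd2, Mcm5 and Cdt1.

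Estimates between the controls moved with base composition. Across 12555 genes the log2 fold change of CT ob against CT db correlated with the GC share of a gene's transcripts at a Spearman rho of 0.514, a value across genes, which share libraries and are not replicates. In the other comparisons rho was 0.253 (db model), -0.436 (ob model) and 0.131 (mutants). Cenpq transcripts have a GC share of 40.1% and Cdkn1b 43.4%, against a median of 49.7% for the 42 genes and 49.5% for all, and genes called lower in CT ob had a median of 42.5%, those called higher 55.7%. The libraries at the ends were obHet_68, where GC-rich genes lay 1.01 on the log2 scale above GC-poor genes relative to the mean library, and het_51, where they lay 0.69 below.

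With the GC trend of each library taken out, an alternative chosen after the data were seen, the genes called between the controls dropped from 834 to 120, and 0 of the 40 cell cycle genes were called. The 834 were 282 higher and 552 lower, against 352 and 434 with upper quartile scaling, and 261 were called when scaled by library size only. Their number was 112 without obHet_68, 138 without het_51, 201 without het_75, 376 without obHet_60 and 482 without het_69, and between 604 and 1196 without any other single library. With the GC trend taken out Cenpq had a log2 fold change of -0.41 ± 0.15 (adjusted p = 0.183) between the controls, -0.59 ± 0.14 (adjusted p = 0.365) for db/db, and 0.06 ± 0.18 for ob/ob against CT ob. The db/db estimate was thus nearly as large as before, and that of ob/ob near 0. Cdkn1b between the controls became -0.61 ± 0.27 and Ccnd2 0.47 ± 0.23. The licensing and replication medians were -0.33 for db/db, -0.31 for ob/ob and 0.26 between the controls, with all 10 estimates on 1 side in each. What made the libraries differ in GC share was not tested.

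**Figure D5:**
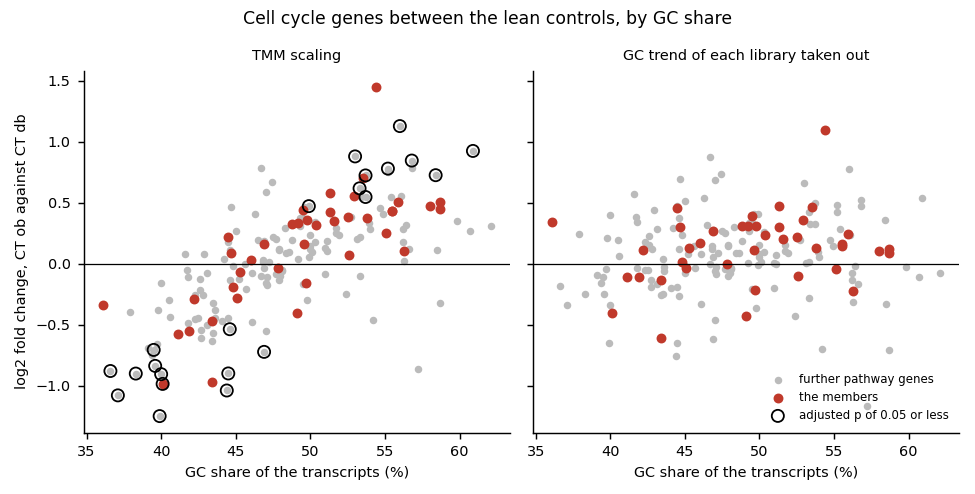
Log2 fold change of CT ob against CT db by GC share of the transcripts for the 40 tested genes (red) and the further cell cycle genes (grey), with TMM scaling (left) and with the GC trend of each library taken out (right), and black rings at an adjusted p of 0.05 or less. On the left GC-poor genes such as Cenpq at 40.1% lie below 0 and rings sit at both ends, and on the right no gene is ringed.

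Between the mutants, the replication side of the programme had the higher estimates in ob/ob. Of the 40 genes 0 were called, against 0.0159% of all genes, and DESeq2 called 0 of the 40 and 0.572% of all genes. At an unadjusted p under 0.05 there were 3 higher genes (4.62% of all genes) and 1 lower gene (3.56%), together against 8.18%. The groups did not overlap for 6 genes, all higher in ob/ob (E2f1, Cdc6, Cdc45, Cdt1, Mcm3 and Mcm5), against 7.05% of all genes higher and 3.15% lower, together 10.2%. The estimates were above 0 for 25 of 40 (49.1% of all genes), with a median of 0.11 against -0.01. E2f1 gave 0.38 ± 0.18 (adjusted p = 0.61), Cdt1 0.55 ± 0.21 (adjusted p = 0.462), Cdc20 0.34 ± 0.16 (adjusted p = 0.601) and Cdkn1b -0.77 ± 0.28 (adjusted p = 0.434). The mutants differ in colony and in depth as well as in the mutated gene. Oocyte markers summed to 125, 195 and 692 CPM in ob/ob and 5.42, 6.27, 39.2 and 59.3 CPM in db/db. All 8 oocyte genes tested were higher in every ob/ob library than in any db/db library, with a median log2 fold change of 3.65. In the db model alone only 4 of the 10 oocyte genes passed the filter on low counts. Some of the 8 were thus tested through the ob libraries, where they are high, and the filter partly fixed this count. The part of oocyte transcripts in the estimates of the cell cycle genes was not tested.

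The effects of the mutations were also compared between the models, where edgeR called no cell cycle gene. For the difference of the mutant effects (ob minus db), 0 of 40 genes passed an adjusted p of 0.05, as did 0% of all genes, and DESeq2 called 1 of the 40 and 0.572% of all genes. At an unadjusted p under 0.05 there was 1 gene above 0 (5.12% of all genes) and 0 below (2.99%), together against 8.11%, and 14 of 40 differences were above 0 (46.7% of all genes). That gene was Cenpq, with a difference of 1.15 ± 0.23 on the log2 scale (adjusted p = 0.189 by edgeR, adjusted p = 0.00529 by DESeq2). With the GC trend taken out it was 0.65 ± 0.21 (adjusted p = 0.804). The Cenpq estimate was 0.16 ± 0.16 between the mutants (adjusted p = 0.911 by edgeR) and -0.99 ± 0.17 between the controls. The median difference over the 40 genes was -0.11, against -0.04 over all genes, and for the 10 licensing and replication genes, 5 above and 5 below 0, it was -0.02.

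The same comparisons were made on further genes of the pathway, in 6 lists that hold no member. In the db model, the ob model, the mutant comparison and the difference of effects, 0 genes of any list were called by edgeR. DESeq2 called Cenpk in the db model (adjusted p = 0.0379), and Cenpk (adjusted p = 0.00904) and Smc4 (adjusted p = 0.0367) in the difference of effects. It called 0.389% and 0.572% of all genes in those comparisons. In the db model, the ORC, GINS and fork genes, which build origins and replication forks, had 26 of 38 estimates below 0, and in the ob model also 26 of 38. Below 0 lay 15 (db model) and 16 (ob model) of 31 kinetochore, spindle and cytokinesis genes, of the RB, E2F and DREAM genes 10 of 19 in each, of the APC/C, cohesin and condensin genes 15 and 10 of 21, of the INK4 and cyclin-CDK turnover genes 6 of 16 in each, and of the DNA damage and growth arrest genes 5 and 7 of 15.

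Between the controls, 8 of 38 ORC, GINS and fork genes rose and 2 fell in CT ob, where 2.24% and 4.39% of all genes did. DESeq2 called 15 of the 38 and 12.4% of all genes. The fit of the 7 control libraries alone called 3 of all 11876 genes, each lower in CT ob, so that none of the 8 rises was called there. Those with the smallest p were Pold1 (0.93 on the log2 scale, adjusted p = 0.012), the catalytic subunit of polymerase delta, the origin binding subunits Orc2 (-1.04, adjusted p = 0.016) and Orc4 (-0.88, adjusted p = 0.0222), and the ligase Lig1 (0.88, adjusted p = 0.0246). In the RB, E2F and DREAM list E2f2 rose (1.13, adjusted p = 0.0449) and in the turnover list Ccnh (-0.71, adjusted p = 0.0376), a subunit of the CDK-activating kinase, and Ccng2 (-0.90, adjusted p = 0.0475) fell. Condensin Smc4 (-1.25, adjusted p = 0.0118), cohesin Stag2 (-0.90, adjusted p = 0.043) and Cdc27 of the anaphase ligase (-0.91, adjusted p = 0.0449) fell, as did the checkpoint kinase Atr (-0.84, adjusted p = 0.0346) and Sesn1 (-0.72, adjusted p = 0.0462). With the GC trend taken out, 0 genes of these lists were called.

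In the kinetochore list, Cenpk (-1.08, adjusted p = 0.00658) and Cenph (-0.54, adjusted p = 0.0449) fell in CT ob and Mad1l1 (0.85, adjusted p = 0.0401) rose. Cenpk and Cenph encode partners of Cenpq in the same inner kinetochore network. Cenpk ranged over 80.7 to 116 CPM for db/db against 137 to 213 CPM for CT db, and over 102 to 107 CPM for ob/ob against 68.8 to 86.1 CPM for CT ob, and like Cenpq it was separated from its controls downward in db/db (-0.74 ± 0.17, adjusted p = 0.363 by edgeR and adjusted p = 0.0379 by DESeq2) and upward in ob/ob (0.39 ± 0.16, adjusted p = 0.611). Over all genes, the groups did not overlap downward for 3.13% in the db model and upward for 9.06% in the ob model. Of the 31 genes in this list, 2 were lower and 1 higher without overlap in the db model. In the ob model 3 were higher and 3 lower. Cenpk transcripts are also GC-poor, at 37.1%. With the GC trend taken out its estimates were -0.58 for db/db, -0.09 for ob/ob and -0.34 between the controls.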

How the data were processed

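GCs were collected by the authors from antral follicles, captured on oligo-dT beads, amplified by a Smart-seq2 type protocol without molecular identifiers and sequenced as single reads. The authors deposited raw counts per gene. The paper's methods name cutadapt, STAR, GRCm39 and featureCounts, while the submitters' processing notes name FastQC, Trim Galore 0.6.2, HISAT2 2.1.0 and GRCm38, and which made the counts was not settled. The strand setting is not given in the sources used here. Columns were tied to groups by name through the study's own description of its datasets. They carry no replicate number of the labels. Nothing states that libraries of a group came from separate mice, so p-values measure only the spread between these libraries, which may be technical.

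Gene symbols came from GENCODE M39, which named 98.8% of the table's genes. Counts were fitted with edgeR 4.0.16 in R 4.3.3 (TMM scaling, filterByExpr at 10 counts and a total of 15, quasi-likelihood F test, Benjamini-Hochberg adjustment over all genes tested), each model on its own and comparisons across models on all 14 libraries. A call is an adjusted p of 0.05 or less. DESeq2 1.42.0, other scalings, filters, fits and left-out libraries were alternatives. The GC trend (lowess, span 0.3, of log2 values on transcript GC share) was added after seeing the data. The fits were tested on simulated data. The members and all lists were chosen with earlier results of these data known. All 42 genes are named, with a fold change and adjusted p where the unadjusted p was under 0.05. Genes of the further lists are named where called, at most the 4 with the smallest p per list. Sequences came from RefSeq on GRCm38.p6 and gene positions from GRCm39, and no coordinate was converted between them.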

Additional observations from a re-analysis of the deposited data

Results flagged for a closer look

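In 8 of 80 sets of 4 libraries tested for single genes, and in 1 of 16 tested for phase sums, 1 library lay far from the other 3 by Dixon's ratio, the gap to the nearest library divided by the whole range, at its critical value for 4 values. Chance flags about 1 in 20 such sets. In CT db, het_37 was the highest library for Ccnd2 (1356 CPM against 904 to 973, ratio 0.848), E2f1 (56.1 CPM against 41.3 to 42.6, ratio 0.917), Cdc6 (127 CPM against 36.6 to 45, ratio 0.907), Cdc45 (125 CPM against 70.5 to 75.2, ratio 0.913) and the summed G1 cyclins and kinases (2215 CPM against 1685 to 1752, ratio 0.874). In db/db, HOM_24 was lowest for Cdkn1a (0.417 CPM against 6.31 to 7.51, ratio 0.83) and Cenpe (90 CPM against 170 to 182, ratio 0.869). HOM_81 was highest for Rrm1 (475 CPM against 384 to 397, ratio 0.864) and lowest for Mad2l1 (185 CPM against 219 to 224, ratio 0.858). Cenpq differed in its mutant effect between the models by 1.15 on the log2 scale and that difference did not pass adjustment over all genes (adjusted p = 0.189, edgeR quasi-likelihood).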

How the results depend on the processing

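The number of cell cycle genes called stayed the same under most alternatives. In the db model it was 0 as reported (0.00884% of all genes) and 1 with DESeq2 (0.389%). It was 2 (Cenpq and Mki67) when every gene with at least 1 count was tested (0.947% of all genes). Between the controls it was 1 in the analysis as reported (6.63% of all genes) and 4 with DESeq2 (12.4%). With every gene of at least 1 count it was 3 (4.97%). It was 0 in a fit of the control libraries alone (0.0253%). With the GC trend taken out it was 0 (0.953%), also without obHet_68 (0.152%) or het_51 (0.208%). When single libraries were left out it was 1 to 8, with 8 without het_37 (9.46%) and 2 without HOM_24 (6.14%) or obHOM_41 (7.33%). For the difference of the mutant effects it was 1 with DESeq2 (0.572%) and 1 with every gene of at least 1 count (0.947%), against 0 (0%). The Bub1 estimate between the controls turned from -0.58 to 0.0824 with the GC trend taken out and obHet_68 left out. Leaving out het_37 took the negative licensing and replication estimates in the db model from 10 to 5. Over the named genes and that count, 755 values under alternatives kept their direction and side of the threshold, 16 newly passed it and 4, all of Cenpq between the controls, no longer passed. The causes were not tested. No paired analysis was possible because the columns carry none of the replicate numbers of the labels. Depth was lowest in db/db, and no library was deep enough to compare Ccnd1, Cdkn1c or Lepr.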
